A study of Mus musculus with 8 samples.

Results

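Peritoneal macrophages of wild-type mice were followed through the opening hours of their response to lipopolysaccharide (LPS). The time course comprised 4 of the 8 arrays of the series, the wild-type arrays of 0, 1, 2 and 4 h, chosen by their titles alone. Thioglycollate, which recruits monocytes to an inflamed site, had been injected into the mice, and the cells were taken from the peritoneum. The 0 h array is of unstimulated cells, and the other 3 are of cells given 100 ng/ml of LPS. The remaining 4 arrays hold the same times in macrophages labelled Zc3h12a-/-, a gene for an RNase that cuts inflammatory mRNAs. They are used here only as a yardstick, and they are called the labelled knockout because the Zc3h12a probe set gave signal there too. It read 6.73, 7.70, 8.75 and 8.50 at 0, 1, 2 and 4 h, and where it lies relative to the deletion is not known here, so it does not check the genotype. The sources used here give neither the sex, the age nor the number of mice per array.

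LPS, a component of the outer membrane of Gram-negative bacteria, is bound by CD14 and MD-2 and sensed by the receptor TLR4. The adaptor MyD88 carries the signal to NF-kB and the MAP kinases, which drive immediate early factors, cytokines and chemokines. The adaptor TRIF carries it to IRF3 and to interferon-beta, which acts back on the same cells and turns on antiviral genes later. Inhibitors made in the same response, such as IkB-alpha and A20, restrain it. Macrophages are among the main responders to LPS, and their response is known for successive waves of transcripts.

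The values are log2 RMA values, which set each array on a common distribution. The table held 45101 probe sets, of which 34958 carried a single gene symbol. Each of 18193 genes was read from its brightest probe set over the wild-type arrays, and 8572 genes whose highest wild-type array reached at least 4.16 were kept. That level lies 1 log2 unit above the median of the table. Every result is the difference of a single LPS array from the 0 h array, so there is no replicate, no test and no p-value. The 3 differences also share the 0 h array, and an error in that array would enter all of them. A gene is counted as changed here when it lies at least 2-fold (1 log2 unit) from 0 h. Values at or below an array's background, which lay between 3.02 and 3.26 in the 4 arrays, give a bound that is written as "at least".

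The cells carried the transcripts that define macrophages. All 14 measured genes of a list of 15 macrophage markers were kept and lay above background at every time. Adgre1, which encodes F4/80, read 10.82, 10.79, 10.82 and 11.03 at 0, 1, 2 and 4 h, and Csf1r, the receptor for the growth factor CSF-1, read 13.29, 13.22, 13.09 and 12.66. All 6 measured elicited-macrophage markers and 8 of 10 resident peritoneal macrophage markers were kept. Among the elicited markers Cd36 stayed within 2-fold and Ccr2 and Trem2 were at least 2-fold lower at 4 h. Among the resident markers Gata6 lay below the filter at every time, whereas Timd4 read 4.87, 5.30, 5.95 and 6.39, so transcripts of both kinds were present. The rise of Timd4 does not stand for its list. Of the 8 kept resident markers, 2 were at least 2-fold higher and 2 lower at 4 h, where 11.7% and 19.2% of all kept genes were. Of 10 measured neutrophil markers 4 were kept. Ltf, Elane, Mpo and Cxcr2 were at background on all 4 arrays, whereas S100a8 read 10.39, 10.50, 11.25 and 11.79. The other kept markers differed, with S100a9 at 3.58, 4.25, 5.18 and 4.98, Csf3r at 6.36, 6.36, 5.98 and 6.99 and Mmp8 at 6.33, 5.88, 5.84 and 5.54. The summed linear level of the neutrophil list was 1562, 1658, 2641 and 3790 in the order of time. S100a8, by far the brightest member, weighs most in that sum, so it does not stand for the list. The part of neutrophil RNA in the results was not tested. In such bulk samples, fewer cells of a type and less RNA per cell cannot be told apart. B cell, T and NK cell and dendritic cell lists kept 2, 1 and 1 genes, and the mesothelial and stromal list kept 7 of 13, with Col1a1 between 9.70 and 10.09. The eosinophil and mast cell list kept 3 of 9 measured genes. Cpa3 read 5.38, 4.59, 4.89 and 3.84 and Cma1 4.68, 3.78, 4.02 and 3.65, both at least 2-fold lower at 4 h. In the labelled knockout their 4 h differences were 0.21 and -0.34. They read 3.02 and 3.14 at 0 h there, close to that array's background of 2.96, so hardly any decrease could show. Siglecf stayed within 2-fold.

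The arrays were alike in their technical readouts. Pearson's correlation over all probe sets lay between 0.945 and 0.981 for the 6 pairs of wild-type arrays. The Actb control probe set at the 3' end exceeded that at the 5' end, a readout of RNA integrity and amplification, by 2.64, 2.35, 2.43 and 2.16 at 0, 1, 2 and 4 h. The bioB hybridisation control stood 0.28, 0.31 and 0.20 above the 0 h array at 1, 2 and 4 h, against 0.01, 0.00 and 0.02 in the labelled knockout. That shift is far below the 2-fold level and its part in the results was not tested.

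The response widened with time. At 1 h, 333 genes (3.88% of those kept) were at least 2-fold higher and 401 (4.68%) at least 2-fold lower. At 2 h the counts were 717 (8.36%) and 1298 (15.1%), and at 4 h they were 1006 (11.7%) and 1650 (19.2%). In all, 3403 genes (39.7%) passed 2-fold at some time. Large changes were mostly increases, since 42, 78 and 120 genes stood at least 16-fold above 0 h at 1, 2 and 4 h, against 0, 11 and 27 below it. Decreases had less room by construction. A gene at background at 0 h could pass the filter through an LPS array alone. A 16-fold decrease could show only in genes well above background at 0 h, where the median kept gene read 7.07. The part of this limit in the counts was not tested. The median kept gene lay at -0.16, -0.26 and -0.23, and counts of lower genes are to be read against that shift. Counts within each gene list below are to be read against the percentages over all kept genes given here.

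The balance of higher and lower genes depended on how the arrays were scaled. Higher genes made up 45.4%, 35.6% and 37.9% of the called genes at 1, 2 and 4 h in the deposited values. After cyclic loess the shares were 57.8%, 46.6% and 45.8%. Centring on the median level of 11 housekeeping genes gave 66.1%, 65.5% and 83.0%. In every wild-type array that median was the level of a single gene, Gusb, which itself lay -0.21, -0.39 and -0.76 from 0 h. Shifting instead by the median deviation of the same genes, a setting added after the data were seen, gave 46.3%, 39.8% and 46.6%. Directions of modest changes are therefore given relative to the other genes of the same arrays, not as amounts of mRNA per cell. Quantile normalisation, the step of RMA that makes distributions alike, assumes that most genes do not change.

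The labelled-knockout arrays, which share no array with the wild-type ones, gave a yardstick for these single differences. Over the kept genes, the wild-type change minus the labelled-knockout change had a standard deviation of 0.35, 0.41 and 0.44 log2 units at 1, 2 and 4 h, which includes any effect of genotype. Of the genes called higher in wild type, 82.9%, 80.1% and 82.5% also passed 2-fold upward in the labelled knockout at 1, 2 and 4 h. There, 3.74%, 7.99% and 10.9% of all kept genes were called higher. Of the genes called lower, 42.1%, 74.0% and 75.7% were also called lower, where 2.94%, 17.0% and 18.8% of all kept genes were. The lower calls of 1 h were the least repeated of these 6 sets. A further yardstick is the probe sets of the same gene. Of 137 genes called higher at 1 h that had more than 1 kept probe set, 128 had the same sign on every probe set and 86 passed 2-fold on every one. Of 81 such genes called lower at 1 h, 76 had the same sign throughout and 32 passed 2-fold throughout.

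**Figure D1:**
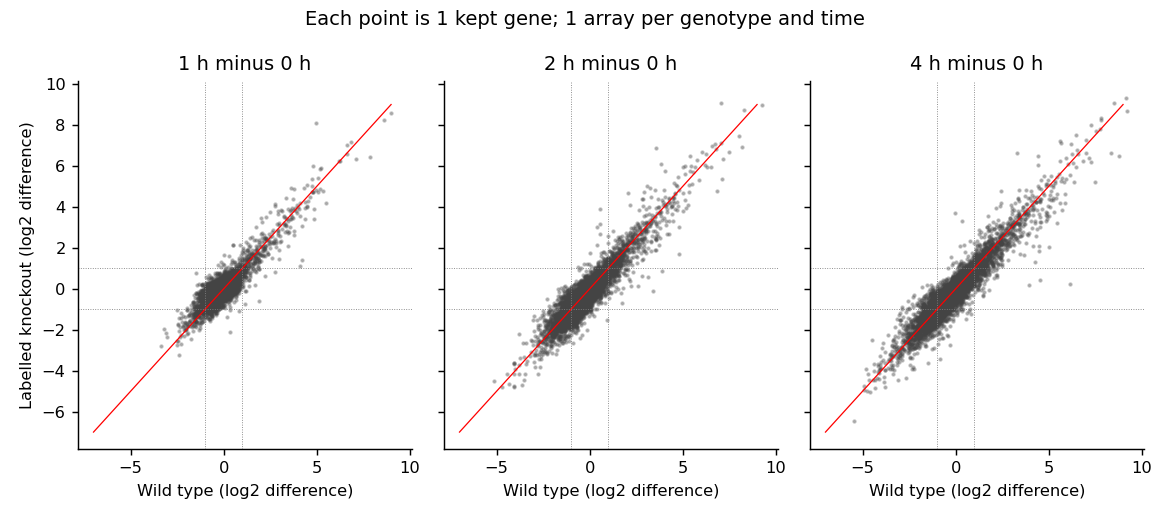
Log2 difference from 0 h in the labelled-knockout arrays (vertical axis) against that in wild type (horizontal axis) at 1, 2 and 4 h, with each of the 8572 kept genes as a point, dotted lines at 2-fold and a red line where the changes are equal. The points follow the line at all times, with a standard deviation of the difference of 0.35, 0.41 and 0.44 log2 units.

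Each kept gene was then given a shape, the pattern of its 2-fold calls at the LPS times. Among the higher genes, 43 were past 2-fold at 1 h only, 59 at 1 and 2 h and 217 at 1, 2 and 4 h. A further 100 were past it at 2 h only, 334 at 2 and 4 h and 431 at 4 h only. Among the lower genes the same patterns held 104, 87, 186, 353, 662 and 778 genes. Another 5 genes were higher at 1 and 4 h, 13 were lower at 1 and 4 h, 31 passed 2-fold in both directions and 5169 stayed within 2-fold. Genes past 2-fold at all LPS times were the most alike between genotypes among the higher shapes, with 182 of 217 (83.9%) given the same shape in the labelled knockout. Of the 12 main shapes, the least alike were genes lower at 1 and 2 h, with 18 of 87 (20.7%), followed by genes higher at 1 h only (12 of 43, 27.9%) and lower at 1 h only (29 of 104, 27.9%). Those 1 h only shapes lie close to the 2-fold limit, with a median of 1.34 and -1.16 at 1 h.

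**Figure D2:**
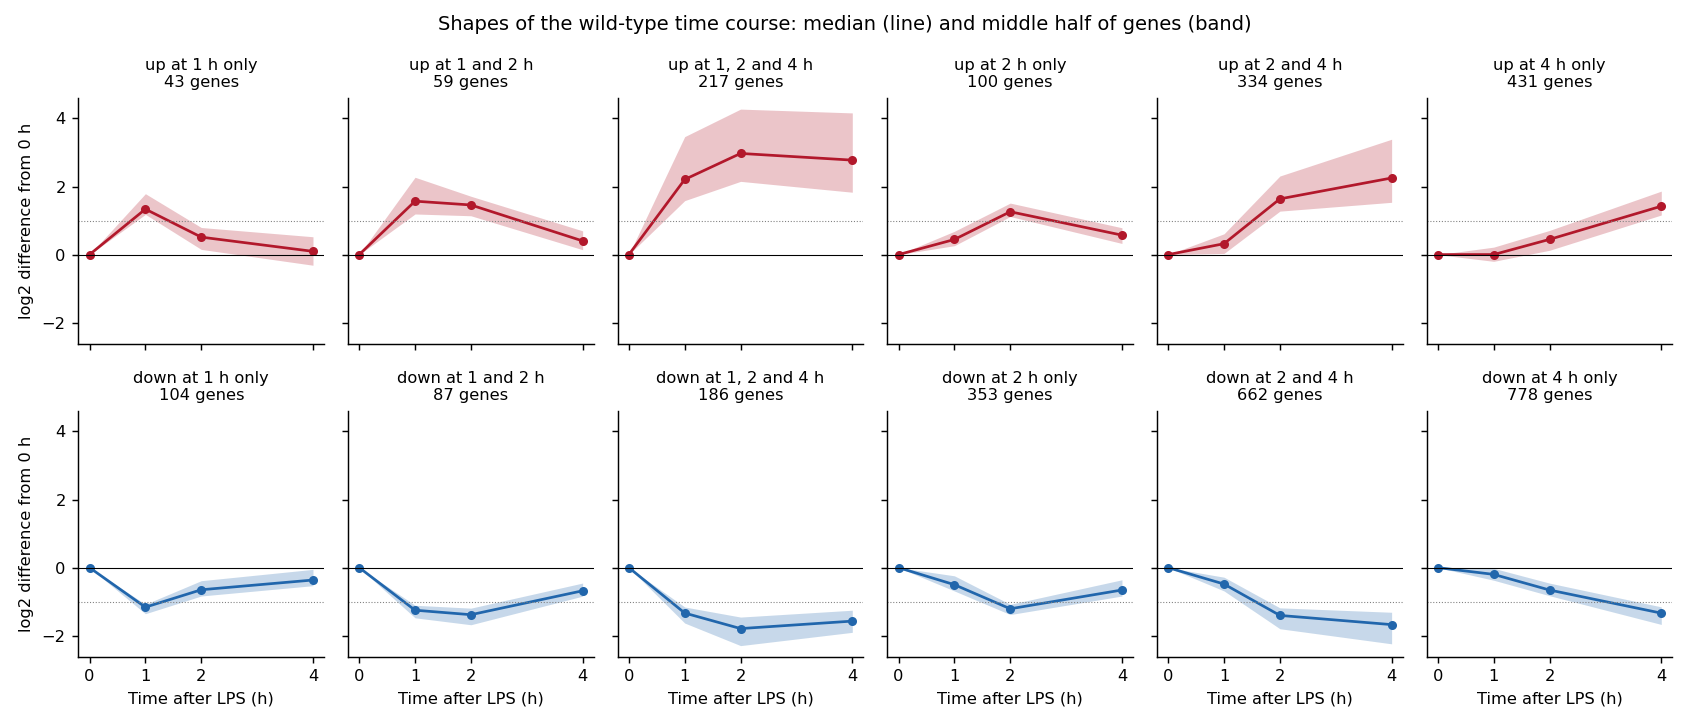
Log2 difference from 0 h (vertical axis) against time in hours (horizontal axis) for the 12 main shapes in wild type, as the median of the genes (line and points) and their interquartile range (band), with a dotted line at 2-fold. The 217 genes higher at 1, 2 and 4 h stand at medians of 2.21, 2.97 and 2.78, whereas the shapes past 2-fold at a single time have medians there between 1.26 and 1.42 upward and between -1.16 and -1.34 downward.

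Early increases split into genes that had returned by 4 h and genes that had not. Of the 333 genes higher at 1 h, 222 were still at least 2-fold higher at 4 h, 103 were back within 2-fold and 8 were at least 2-fold lower. Of the 401 genes lower at 1 h, 199 were still lower at 4 h, 191 were back within 2-fold and 11 were higher. From array to array, 333 genes were at least 2-fold higher and 401 lower between 0 and 1 h, 430 and 611 between 1 and 2 h, and 613 and 503 between 2 and 4 h. The first hour held 42 steps of at least 16-fold upward, against 15 and 4 in the later intervals.

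The immediate early genes, transcription factors and phosphatases that signalling turns on without new protein synthesis, showed the short pulse for which the group is known. Of 29 kept genes among 32 listed, 22, 14 and 7 were at least 2-fold higher at 1, 2 and 4 h and 0, 2 and 3 lower. Their median difference was 2.66, 0.96 and 0.35, against -0.16, -0.26 and -0.23 over all kept genes. Egr1, a zinc finger factor, read 7.20, 12.45, 8.66 and 7.28 at 0, 1, 2 and 4 h. It was 37.9-fold above 0 h at 1 h and 1.06-fold at 4 h, so the array of 4 h was level with the array before LPS. Nr4a1, an orphan nuclear receptor, read 3.19, 7.96, 3.58 and 3.44, a pulse seen in the 1 h array alone. Btg2, an antiproliferative factor, read 4.78, 8.40, 5.54 and 4.97, and Ier2 read 3.94, 7.17, 4.89 and 4.70.

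Other early genes decayed more slowly or went below their starting level. Dusp5, a phosphatase that acts on ERK, read 4.83, 9.81, 7.88 and 5.46, and Csrnp1, a nuclear protein, read 4.29, 10.49, 9.07 and 7.66. Csrnp1 was still past 2-fold at 4 h, with a difference of 3.36. Nr4a3, a relative of Nr4a1, had the other time course, with 3.46, 5.54, 8.59 and 8.43 and its highest value at 2 h. Fos, the partner of JUN in AP-1, read 8.82, 11.53, 7.41 and 6.87, so it was 6.52-fold higher at 1 h and 3.86-fold lower at 4 h. Jun itself, named after its values were seen, read 10.05, 10.31, 6.40 and 7.21 and lay lower at 2 and 4 h. Atf3, a stress factor that restrains LPS targets, stayed within 2-fold at 11.01, 11.10, 10.34 and 10.94. The 0 h array already carried Atf3, Jun and Fos far above background.

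**Figure D3:**
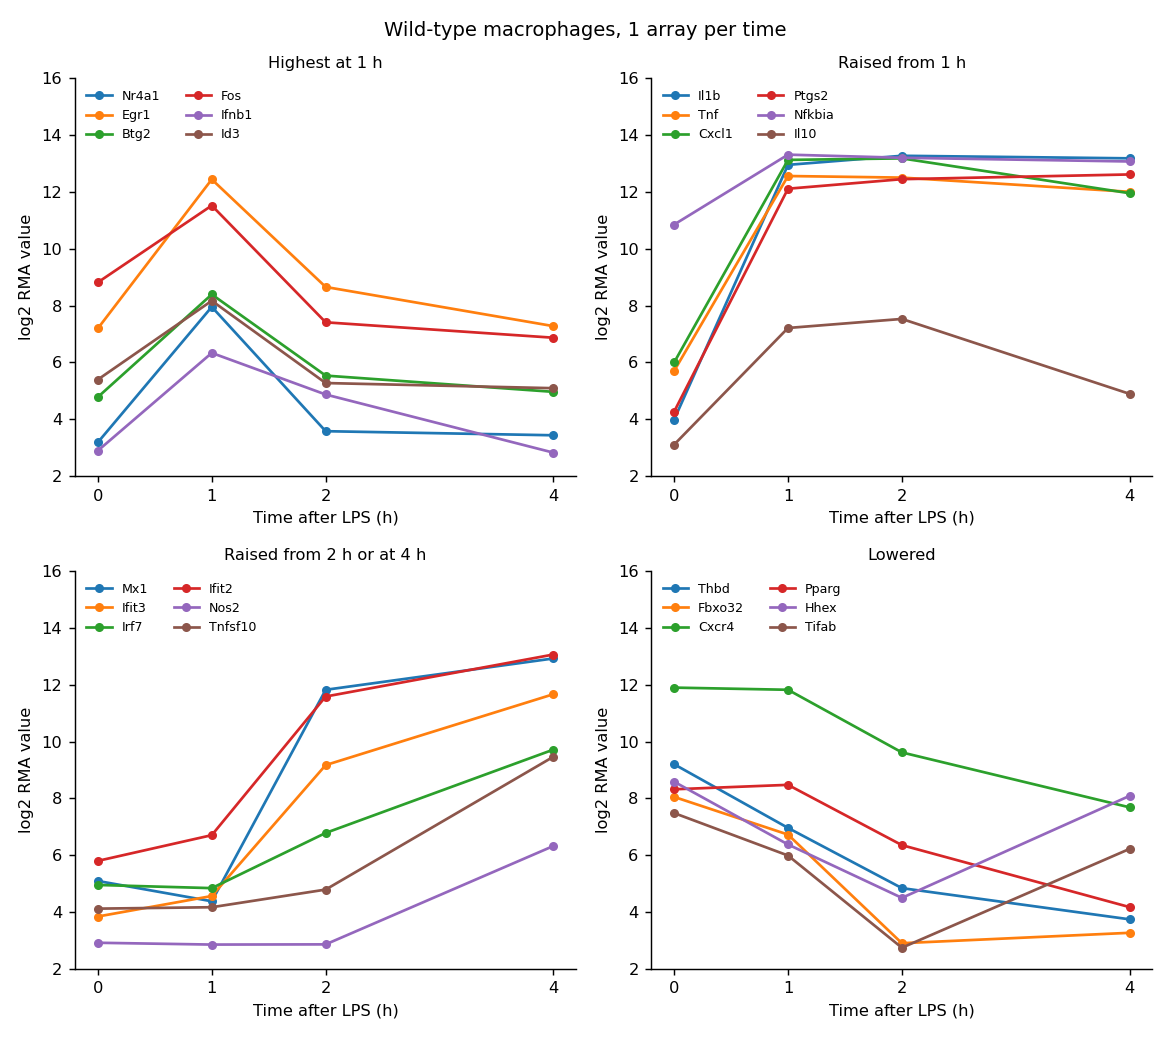
Log2 RMA value (vertical axis) against time after LPS in hours (horizontal axis) for 24 genes in the 4 wild-type arrays, with each point a single array. Panels show genes highest at 1 h such as Egr1 (12.45 at 1 h, 7.28 at 4 h), genes raised from 1 h such as Il1b (3.99 at 0 h, 13.19 at 4 h), genes raised later such as Mx1 (4.38 at 1 h, 11.82 at 2 h) and genes lowered such as Thbd (9.20 at 0 h, 3.74 at 4 h).

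The NF-kB family, the dimeric factors at the centre of the response and the IkB proteins that hold them in the cytoplasm, was higher early and stayed so. Of 13 measured and kept genes among 15 listed, 10 were at least 2-fold higher at each of 1, 2 and 4 h and none was lower. The median difference was 2.46, 2.28 and 2.21. Rel, a subunit typical of immune cells, read 4.71, 9.09, 8.78 and 8.47. Nfkb2, which encodes the p100 precursor, read 5.71, 8.18, 9.78 and 10.17 and had its highest value at 4 h, but its other kept probe set gave -0.37, 0.22 and 0.30 and so no 2-fold change. Nfkbiz, an atypical IkB that assists NF-kB on secondary genes, read 6.95, 12.43, 11.96 and 11.34. Nfkbia, which encodes IkB-alpha and closes the feedback loop, read 10.86, 13.32, 13.21 and 13.08, and its 5 kept probe sets differed in size, with differences from 2.46 to 5.89 at 1 h.

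Feedback genes of Toll-like receptor signalling followed. Of 20 kept genes, 12, 15 and 14 were at least 2-fold higher at 1, 2 and 4 h and 1 was lower at each time. Tnfaip3, which encodes the ubiquitin-editing enzyme A20, read 6.85, 11.66, 11.31 and 10.88. Traf1, an adaptor of TNF receptors, read 4.85, 8.47, 9.51 and 10.28, with differences of 4.66 at 2 h and 5.42 at 4 h. Its other kept probe set gave 2.03 and 1.35 at these times, and so no rise from 2 to 4 h. Zfp36, which encodes tristetraprolin and destabilises cytokine mRNAs, read 7.67, 11.51, 9.44 and 9.77. Zc3h12a, the gene targeted in the other genotype, read 6.12, 8.02, 8.87 and 8.57 in wild type, a difference of 1.90, 2.75 and 2.45. Its relative Zc3h12c read 5.05, 8.50, 8.67 and 8.67. Cish, an SOCS-family inhibitor of STAT5 signalling, was at background at 0 h with 2.73 and read 5.47, 7.84 and 6.47 later, at least 27.5-fold higher at 2 h. The list's lower gene was Tnfaip8l2, a negative regulator of immune receptors named after its values were seen, at 5.94, 3.67, 2.93 and 4.19.

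The sensing apparatus showed smaller differences than its targets. Of 12 kept genes of the LPS receptor and its adaptors, 2, 3 and 4 were at least 2-fold higher at 1, 2 and 4 h and 0, 1 and 0 lower, where 3.88%, 8.36% and 11.7% of all kept genes were higher. The median difference was 0.25, 0.31 and 0.37, against -0.16, -0.26 and -0.23 over all kept genes. Cd14 read 9.81, 12.61, 12.71 and 12.36, and Myd88 read 7.57, 8.59, 9.15 and 9.66. Tlr4, the receptor, went the other way at 9.24, 8.54, 7.26 and 8.52, with its lowest value at 2 h, 3.94-fold below 0 h. Its 2 kept probe sets gave -1.98 and -1.26 at 2 h. Among the other Toll-like receptors, Tlr2, which senses bacterial lipopeptides, read 7.63, 11.00, 12.04 and 12.03, and Tlr3, which senses double-stranded RNA, was past 2-fold at 4 h alone at 7.80, 7.62, 8.12 and 10.84. Tlr13, which senses bacterial ribosomal RNA, read 9.10, 8.93, 7.71 and 6.66.

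Cytokine genes reached high differences within the first hour. Of 23 kept genes among 28 listed, 16, 18 and 19 were at least 2-fold higher at 1, 2 and 4 h and 0, 0 and 1 lower, with a median difference of 2.58, 3.25 and 2.98. Il1b, which encodes the fever-inducing cytokine IL-1 beta, read 3.99, 12.96, 13.28 and 13.19. It was 502-fold above 0 h at 1 h, the largest of all differences at 1 h among the kept genes, and changed little afterwards. Tnf read 5.70, 12.56, 12.51 and 12.01, 116-fold higher at 1 h and 79.1-fold at 4 h. Tnfsf9, the ligand of the costimulatory receptor 4-1BB, read 3.90, 12.54, 11.92 and 9.49 and so was early and partly lost by 4 h.

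Other cytokines built up or passed through. Il6, a driver of the acute phase response, was at background at 0 h with 3.0 and read 7.97, 10.06 and 11.49, at least 30.1-fold, 128-fold and 345-fold higher at 1, 2 and 4 h. Il12b, the p40 subunit of IL-12 and IL-23, was also at background with 2.99 and read 4.35, 8.30 and 8.62, at least 47.2-fold higher at 4 h, while its lower probe set gave 0.17 at 1 h. Il10, an inhibitor of macrophage activation, was high in the middle of the window, at 3.11, 7.21, 7.53 and 4.89. Ifnb1, which encodes interferon-beta, read 2.90, 6.34, 4.87 and 2.83, at least 9.70-fold higher at 1 h and at background again at 4 h. Tnfsf10, which encodes the death ligand TRAIL, moved in the last interval alone, at 4.12, 4.17, 4.79 and 9.47. Vegfa, an angiogenic factor named after its values were seen, was the gene lower at 4 h, at 6.0, 7.65, 5.05 and 3.78.

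Chemokine genes, which call leukocytes to the tissue, stood higher at each later time as a group. Of 20 kept genes among 23 listed, 10, 15 and 16 were at least 2-fold higher at 1, 2 and 4 h and none lower, with a median difference of 1.03, 3.69 and 4.72. The neutrophil attractants came early, with Cxcl1 at 6.0, 13.13, 13.19 and 11.96 and Cxcl2 at 6.12, 12.36, 12.32 and 11.86. Cxcl10, an attractant of T cells, read 4.15, 10.81, 12.45 and 13.29, and its difference of 9.14 at 4 h was next to that of Il1b (9.20) among all kept genes. Ccl5 read 6.19, 11.05, 13.02 and 13.67. Cxcl3, at background with 2.43 at 0 h, read 4.99, 9.90 and 9.70, at least 114-fold higher at 2 h.

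Interferon-stimulated genes formed the second wave. Of 33 kept genes among 37 listed, 5, 30 and 32 were at least 2-fold higher at 1, 2 and 4 h and 1, 0 and 0 lower. The median difference was -0.03, 2.58 and 4.13, of which the 1 h value turns to 0.13 under cyclic loess. In shape, 24 of the 33 were past 2-fold at 2 and 4 h but not at 1 h, 5 at all LPS times and 2 at 4 h only. Mx1, a dynamin-like antiviral GTPase, read 5.09, 4.38, 11.82 and 12.93, so the step from 1 to 2 h carried nearly the whole change. Ifit3 read 3.84, 4.56, 9.17 and 11.67, and Ifit2 read 5.80, 6.70, 11.59 and 13.06, both being proteins that bind viral RNA or its partners. Irf7, the factor that amplifies interferon production, read 4.95, 4.84, 6.78 and 9.72. It was within 2-fold at 1 h and 27.2-fold higher at 4 h.

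A few antiviral genes came with the first wave. The 5 past 2-fold at 1 h were Ifit1, Cmpk2, Rsad2, Oasl1 and Ifih1, of which the last 3 were named after their values were seen. Ifit1 read 6.38, 11.13, 12.96 and 13.41, a difference of 4.75 at 1 h where its neighbours Ifit2 and Ifit3 had 0.91 and 0.72. Cmpk2, a mitochondrial nucleotide kinase, read 4.41, 5.53, 10.66 and 11.94, although its other kept probe set gave 0.21 at 1 h. Rsad2, which encodes viperin, had differences of 3.34, 4.47 and 4.71. At the other end Ddx60, a helicase of antiviral sensing, read 3.15, 2.98, 3.62 and 6.97 and passed 2-fold at 4 h only.

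GTPases that attack pathogen vacuoles went with the interferon-stimulated genes. All 8 kept members of the GBP and IRG families were at least 2-fold higher at 2 and at 4 h, and 3 were at 1 h, with a median of 0.28, 3.05 and 4.51. Iigp1 read 5.38, 5.03, 9.09 and 11.27, and Gbp2 read 7.20, 8.37, 10.34 and 12.05. Among the factors of the pathway, 2, 7 and 8 of 17 kept IRF, STAT and JAK genes were higher at 1, 2 and 4 h and 1, 2 and 0 lower. At these times 3.88%, 8.36% and 11.7% of all kept genes were higher and 4.68%, 15.1% and 19.2% lower. Irf1 was past 2-fold at all LPS times, at 7.50, 10.60, 11.15 and 10.95. Irf4, named after its values were seen, was past it at 1 and 2 h with 5.33, 7.24, 6.95 and 5.22, and Irf8, named in the same way, lay lower there with 8.38, 7.01, 6.90 and 8.21. Stat2 came late at 3.41, 3.61, 4.74 and 6.81. Jak2 read 8.29, 8.92, 11.31 and 11.71.

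Promoter sequence was set beside the shapes. Windows of 300 bases, from 250 before to 50 after the start, came from RefSeq (assembly GRCm38.p6), and 5543 of the 8572 kept genes matched by symbol to a single window. Letters searched on both strands were GGANNTTCC for a kB-like element, GAAANNGAA for an interferon-stimulated response element (ISRE), TGACGTCA for CRE and TGANTCA for AP-1, along with the CArG box. The ISRE letters overlap with longer runs of GAAA, and adjacent matches can overlap. Printed here are the bases before the start of 6 genes, chosen with their matches known as examples of an inhibitor, a cytokine, chemokines and antiviral genes. Nfkbia, Cxcl1, Tnf, Cxcl10 and Ifit1 were past 2-fold at all LPS times and Ifit3 at 2 and 4 h. Capitals mark the kB, ISRE and AP-1 letters, read on the gene's strand from 5' to 3', and none has CRE or CArG letters there. The windows lie at chr12:55492648-55492897 (minus strand) for Nfkbia, chr5:90890995-90891244 (plus strand) for Cxcl1, chr17:35202008-35202257 (minus strand) for Tnf, chr5:92348890-92349139 (minus strand) for Cxcl10, chr19:34640639-34640888 (plus strand) for Ifit1 and chr19:34583279-34583528 (plus strand) for Ifit3.
Nfkbia: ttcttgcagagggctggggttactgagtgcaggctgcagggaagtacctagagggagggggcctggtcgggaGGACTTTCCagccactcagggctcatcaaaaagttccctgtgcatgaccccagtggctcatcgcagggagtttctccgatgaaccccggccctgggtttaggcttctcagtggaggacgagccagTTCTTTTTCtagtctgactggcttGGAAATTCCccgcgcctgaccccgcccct
Cxcl1: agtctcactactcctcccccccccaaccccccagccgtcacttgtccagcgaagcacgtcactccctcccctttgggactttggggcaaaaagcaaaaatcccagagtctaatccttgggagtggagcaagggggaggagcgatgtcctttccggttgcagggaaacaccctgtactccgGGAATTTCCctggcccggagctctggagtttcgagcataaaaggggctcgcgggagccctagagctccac
Tnf: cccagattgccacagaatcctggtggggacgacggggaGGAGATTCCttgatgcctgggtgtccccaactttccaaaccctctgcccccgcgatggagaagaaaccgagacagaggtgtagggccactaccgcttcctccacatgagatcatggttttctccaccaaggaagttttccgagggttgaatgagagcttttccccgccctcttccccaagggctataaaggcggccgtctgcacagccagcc
Cxcl10: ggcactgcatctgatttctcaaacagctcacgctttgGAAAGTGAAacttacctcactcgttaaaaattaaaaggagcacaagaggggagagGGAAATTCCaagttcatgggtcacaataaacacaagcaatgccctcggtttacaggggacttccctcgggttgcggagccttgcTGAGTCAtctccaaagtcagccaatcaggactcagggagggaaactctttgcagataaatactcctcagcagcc
Ifit1: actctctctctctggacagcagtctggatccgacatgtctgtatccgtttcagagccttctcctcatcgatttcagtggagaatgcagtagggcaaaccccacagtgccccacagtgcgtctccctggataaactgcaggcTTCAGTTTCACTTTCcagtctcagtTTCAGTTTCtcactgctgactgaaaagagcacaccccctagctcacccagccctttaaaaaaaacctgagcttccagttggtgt
Ifit3: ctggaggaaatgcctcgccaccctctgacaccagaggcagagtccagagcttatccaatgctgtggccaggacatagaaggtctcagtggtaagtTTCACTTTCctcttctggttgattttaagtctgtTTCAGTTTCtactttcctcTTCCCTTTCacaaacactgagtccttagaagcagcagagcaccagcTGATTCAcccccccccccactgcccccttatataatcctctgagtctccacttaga

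Of these 6 genes, Nfkbia, Cxcl1, Tnf and Cxcl10 had kB-like letters and Nfkbia, Cxcl10, Ifit1 and Ifit3 had ISRE letters. Ifit1, though already past 2-fold at 1 h, had no kB-like letters. Nfkbia had the kB letters at positions -178 to -170 and -29 to -21, counted from the start site, and Cxcl1 and Tnf had them at -70 to -62 and -212 to -204. Ifit1 had ISRE letters at -109, -103 and -84 and Ifit3 at -155, -121 and -102, counted at their left ends. Cxcl10, which was higher at each successive time, had an ISRE match at -213 to -205, a kB match at -158 to -150 and an AP-1 match at -74 to -68. Nfkbia also had 1 match to the ISRE letters, at -53 to -45. A match of letters is a description, and binding was not measured.

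Over the shapes, the shares of windows with these letters differed. The kB letters were in 4.89% of all matched windows and in 23 of 140 windows (16.4%) of genes higher at 1, 2 and 4 h. In genes higher at 2 and 4 h the share was 5.39% and in genes higher at 4 h only 3.97%. The ISRE letters were in 7.43% of all windows, in 40 of 204 (19.6%) of genes higher at 2 and 4 h, in 15.0% of those higher at 1, 2 and 4 h and in 10.5% of those higher at 4 h only. Of 18 matched interferon-stimulated genes 11 (61.1%) had them, and of 14 matched chemokine genes 5 (35.7%) had the kB letters. The AP-1 letters were in 4.76% of all windows and in 11.4% and 10.8% of genes higher at 1, 2 and 4 h and at 2 and 4 h. CRE letters were in 3.50% of all windows and in 4 of 28 (14.3%) of genes higher at 1 h only. For the lower shapes with at least 62 matched windows, the ISRE share lay between 4.44% and 11.4% and the kB share between 3.06% and 8.57%.

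Base composition separated some of the groups too. The CpG ratio, observed over expected, had a median of 0.80 over all matched windows. It was 0.23 in cytokine genes, 0.24 in chemokine genes and 0.25 in interferon-stimulated genes, but 0.84 in immediate early genes. The median GC content was 51.3%, 48.0% and 51.8% in the former 3 lists, against 61.7% over all windows and 65.3% in immediate early genes. The shapes differed less, from 0.65 in genes higher at 1, 2 and 4 h to 0.84 in genes higher at 1 and 2 h. The rate at which letters match depends on composition, and its part in the shares was not tested.

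Gene length also went with the shapes. The genomic span in RefSeq, the distance between the ends of a gene with its introns, had a median of 24.3 kb over 8548 kept genes that had one. It was 10.7 kb for genes higher at 1 h only, 17.7 kb for 1 and 2 h and 15.6 kb for 1, 2 and 4 h. Genes not past 2-fold before 2 h were longer, with 53.2 kb for those higher at 2 h only, 31.9 kb for 2 and 4 h and 35.8 kb for 4 h only. The lower genes showed the same order, with 8.48, 11.4 and 11.4 kb for the shapes that were past 2-fold at 1 h, and 25, 27.3 and 35.2 kb for those that were not. Each group spread widely, as the interquartile range of 4.22 to 25.3 kb of the 1 h only genes shows.

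**Figure D4:**
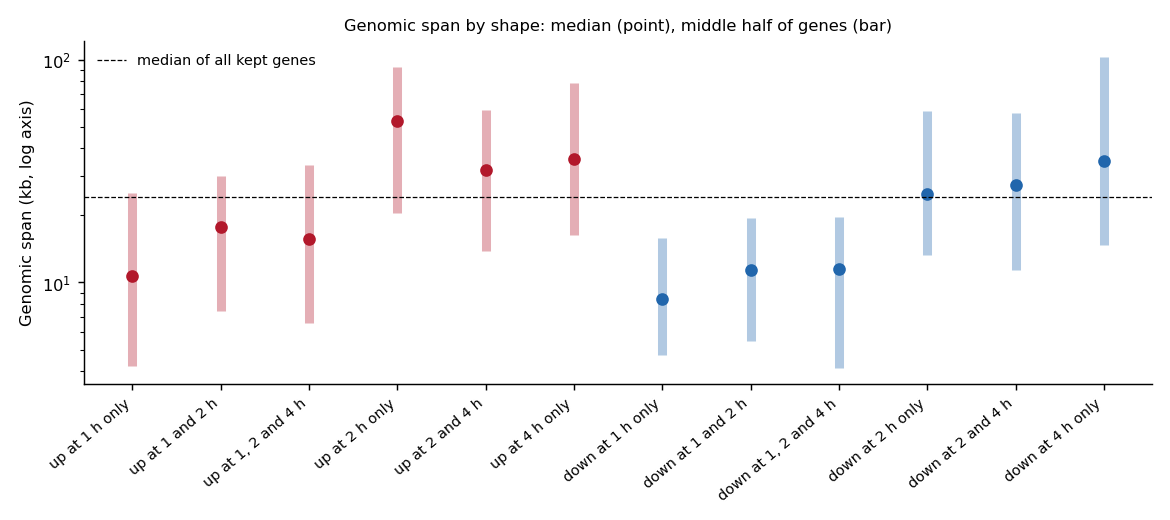
Genomic span in kb on a log axis (vertical) for the 12 main shapes of the wild-type time course (horizontal), as the median (point) and interquartile range (bar) of the genes, with the median of all kept genes dashed. The 6 shapes past 2-fold at 1 h have medians from 8.48 to 17.7 kb and the 6 others from 25 to 53.2 kb.

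Late increases reached genes of antigen presentation. Of 13 kept genes of MHC class I and the immunoproteasome, 0, 1 and 8 were at least 2-fold higher at 1, 2 and 4 h, with a median difference of -0.09, 0.34 and 1.60, the first turning to 0.12 under the housekeeping level. Tap1, which carries peptides into the endoplasmic reticulum, read 7.66, 7.08, 9.10 and 10.74. Psmb10 and Psmb9, catalytic subunits of the immunoproteasome, read 7.54, 7.50, 8.29 and 10.10, and 6.99, 6.11, 7.49 and 9.19. Nlrc5, the transactivator of MHC class I genes, read 9.09, 9.38, 9.43 and 11.83. Among costimulatory molecules, Cd40 read 6.57, 10.36, 11.76 and 12.71 and was early, whereas Cd86 read 4.64, 5.12, 6.98 and 8.80. Of 23 constitutive proteasome subunits 2 were past 2-fold, both at 4 h, namely Psma5 at 8.47, 8.35, 8.48 and 9.72 and Psmd11 at 9.59, 9.78, 10.30 and 10.75, whose 4 kept probe sets ranged from -0.04 to 1.62 at 4 h.

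Enzymes of nitric oxide, itaconate, prostaglandin and polyamine metabolism and their transporters included genes in both directions. Of 25 kept genes, 8, 9 and 8 were at least 2-fold higher at 1, 2 and 4 h, where 3.88%, 8.36% and 11.7% of all kept genes were. Lower were 0, 3 and 8, against 4.68%, 15.1% and 19.2% of all. The list's median was 0.08 at 4 h. The higher genes of the list differed in timing. Ptgs2, which encodes the prostaglandin-making enzyme COX-2, read 4.27, 12.12, 12.45 and 12.62, 231-fold higher at 1 h. Its differences were 7.85 at 1 h and 8.35 at 4 h, where its other kept probe set gave 4.53 and 5.82. Acod1, the enzyme that makes itaconate, read 8.81, 13.04, 13.27 and 13.32. Nos2, the inducible nitric oxide synthase, was at background at 0, 1 and 2 h (2.92, 2.85 and 2.86) and read 6.32 at 4 h, at least 9.62-fold higher. The arginine transporter Slc7a2 came before it, with differences of 0.97, 4.13 and 5.45 at 1, 2 and 4 h. Hdc, which makes histamine, read 3.71, 3.65, 4.69 and 8.91. Lipg, which encodes endothelial lipase, was at background at 0 h with 2.78 and read 3.25, 3.49 and 8.01, at least 30.9-fold higher at 4 h.

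Inflammasome and cell death genes showed both waves. Of 24 kept genes, 9, 8 and 12 were higher at 1, 2 and 4 h, where 3.88%, 8.36% and 11.7% of all kept genes were. Lower were 1, 2 and 5, against 4.68%, 15.1% and 19.2% of all. At 4 h the lower count is near that of all genes. Nlrp3, the sensor of the inflammasome that matures IL-1 beta, read 5.78, 10.14, 10.14 and 9.46. Cflar, which encodes the caspase-8 inhibitor c-FLIP, read 7.85, 10.89, 11.44 and 11.39. Mlkl, the executor of necroptosis, came later at 5.59, 5.63, 7.25 and 9.90. The proapoptotic Bcl2l11, named after its values were seen, read 9.77, 11.31, 10.15 and 7.75, but its 5 kept probe sets ranged from -2.02 to 1.23 at 4 h.

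**Figure D5:**
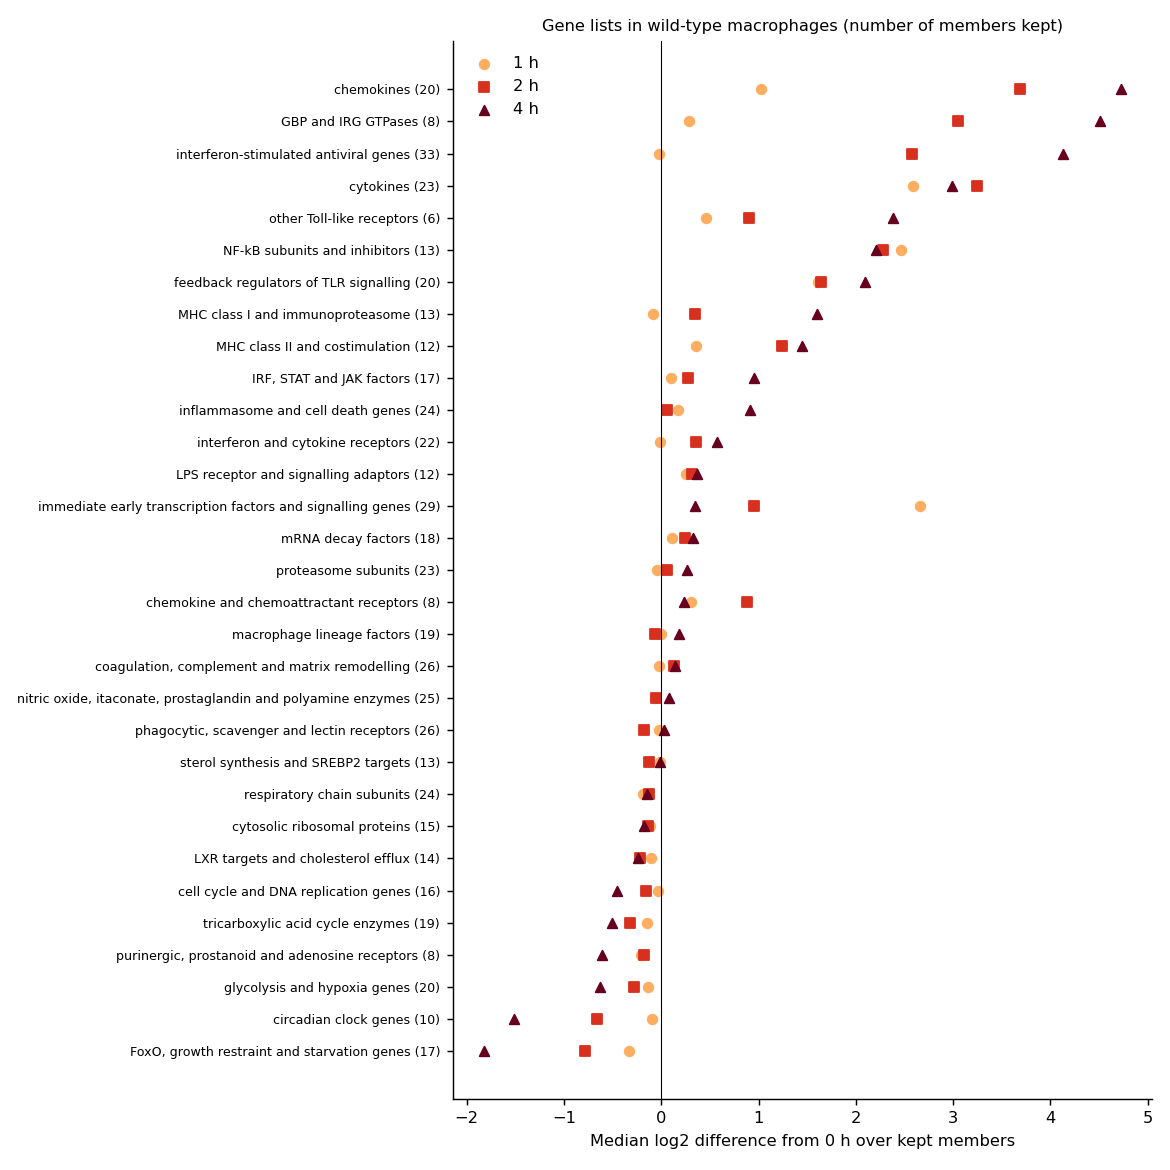
Median log2 difference from 0 h (horizontal axis) over the kept members of each of 31 gene lists (vertical axis, with the number of kept members) at 1 h (circles), 2 h (squares) and 4 h (triangles) in wild type. Immediate early genes are highest at 1 h (2.66), chemokines (4.72) and interferon-stimulated genes (4.13) at 4 h, and growth-restraint (-1.82) and clock genes (-1.51) lie lowest at 4 h; lists near 0 change sign with the scaling of the arrays.

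The genes with the greatest decreases included Thbd, Cd300lb, Mxd4 and Fbxo32. Of 22 kept interferon and cytokine receptor genes, 1, 4 and 8 were higher and 0, 1 and 4 lower at 1, 2 and 4 h. Over all kept genes 3.88%, 8.36% and 11.7% were higher and 4.68%, 15.1% and 19.2% lower. The lower count at 4 h is near that of all genes. Among other receptor lists, 3 of 8 kept chemokine and chemoattractant receptors were lower at 4 h and 2 higher. Of 8 purinergic, prostanoid and adenosine receptors 3 were lower and 1 higher, and of 26 phagocytic, scavenger and lectin receptors 6 were lower and 7 higher. Thbd, which encodes thrombomodulin, the endothelial and myeloid anticoagulant receptor, read 9.20, 6.96, 4.84 and 3.74. It was 44.0-fold lower at 4 h, the largest decrease at that time among kept genes. Cd300lb, an activating myeloid receptor, read 10.16, 8.66, 6.09 and 5.21. Cxcr4, the receptor for CXCL12, read 11.90, 11.82, 9.62 and 7.68, 18.6-fold lower at 4 h, with a difference of -0.08 at 1 h. Il6ra, the receptor for IL-6, read 7.16, 6.69, 5.70 and 4.41, so it lay lower while its ligand lay higher.

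The list of FoxO targets, growth restraint and starvation genes had the lowest median of the lists at 4 h. Of 17 kept genes, 4, 8 and 10 were at least 2-fold lower and 3, 2 and 2 higher at 1, 2 and 4 h, with a median of -0.34, -0.79 and -1.82. At these times 4.68%, 15.1% and 19.2% of all kept genes were lower and 3.88%, 8.36% and 11.7% higher. Fbxo32, a ubiquitin ligase of muscle wasting also known as atrogin-1, read 8.05, 6.72, 2.90 and 3.27, at background at 2 h and at least 27.7-fold lower there. Sesn1, a stress inhibitor of mTORC1, read 8.53, 7.32, 4.45 and 4.20. Mxd4, an antagonist of MYC, read 8.63, 7.65, 5.69 and 3.73, but its other kept probe set gave -1.24 at 4 h where this one gave -4.91. Tsc22d3, the glucocorticoid-induced GILZ, read 7.74, 5.28, 3.93 and 3.63. The list was not uniform, since Cdkn1a, an inhibitor of cyclin-dependent kinases named after its values were seen, had differences of 2.35, 2.40 and 2.08.

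Circadian clock genes lay lower late in the course. Of 10 kept genes, 0, 4 and 6 were at least 2-fold lower and 1, 1 and 0 higher at 1, 2 and 4 h. Over all kept genes 4.68%, 15.1% and 19.2% were lower and 3.88%, 8.36% and 11.7% higher. The list's median was -0.09, -0.66 and -1.51, the first turning to 0.11 under the housekeeping level. Dbp, a PAR-domain output factor of the clock, read 7.64, 6.72, 3.60 and 3.27. Nr1d2, the repressor REV-ERB beta, read 8.04, 8.0, 6.72 and 5.66, Tef read 6.13, 5.51, 4.78 and 3.92, and Per3 read 6.74, 6.36, 4.85 and 4.88. Of the 17 listed genes 7, among them Per1, Per2 and Nr1d1, were below the filter. The sources used here do not state the hour of harvest.

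Lineage factors of macrophages held genes of both directions. Of 19 kept genes, 3, 7 and 4 were at least 2-fold lower at 1, 2 and 4 h, where 4.68%, 15.1% and 19.2% of all kept genes were. Another 3, 2 and 4 were higher, against 3.88%, 8.36% and 11.7% of all. At 4 h the lower count is near that of all genes. Cebpa, a myeloid differentiation factor, read 9.56, 8.41, 6.92 and 6.11. Pparg, the nuclear receptor of lipid handling in macrophages, read 8.32, 8.48, 6.35 and 4.17, 17.7-fold lower at 4 h. Hhex, a homeobox repressor, read 8.59, 6.38, 4.50 and 8.09, 17.0-fold lower at 2 h and back within 2-fold at 4 h. Tfec, of the MiT family, was higher, at 5.11, 7.91, 8.02 and 6.71.

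Hhex was an example of a dip. Lower at 2 h but within 2-fold at 4 h were the 353 genes of the 2 h only shape and the 87 of the 1 and 2 h shape. As groups they returned only in part. The median was -1.21 at 2 h and -0.66 at 4 h in the former and -1.38 and -0.68 in the latter. Over all kept genes it was -0.26 and -0.23. Tifab, an inhibitor of TRAF6 signalling, also had its lowest value at 2 h but was still past 2-fold lower at 4 h, with 7.48, 5.99, 2.74 and 6.22. It was at background at 2 h and at least 18.7-fold lower there. S1pr2, a receptor for sphingosine-1-phosphate, read 7.27, 5.56, 4.50 and 6.42, but its other kept probe set gave -0.44 at 2 h. Polrmt, the mitochondrial RNA polymerase, read 7.23, 6.21, 4.88 and 6.66. The kinase gene Wee1 read 6.17, 5.29, 4.03 and 5.88, and the Wnt receptor gene Fzd7 read 7.95, 7.24, 5.50 and 7.48. Idh2, a mitochondrial isocitrate dehydrogenase, read 7.15, 6.63, 5.18 and 7.46, but its other kept probe set gave -0.79 at 2 h and -1.68 at 4 h and so showed no return.

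Thbd, Hhex and Tsc22d3, described above, were already at least 2-fold lower at 1 h, with differences of -2.24, -2.21 and -2.46. The largest decreases at that time were of other genes. The 6 largest at 1 h were Zfp763 (7.68, 4.33, 5.50 and 5.78), Zfp955a (7.38, 4.16, 6.37 and 6.29), E330020D12Rik (7.60, 4.52, 3.83 and 3.68), Chchd7 (7.93, 4.89, 5.51 and 6.14), AI467606 (9.45, 6.94, 6.01 and 7.09) and Pheta2 (6.23, 3.72, 3.22 and 3.33). The 3 kept probe sets of Chchd7 ranged from -3.04 to -0.36 at 1 h. Among genes past 2-fold at 1 h only, Zfp39 read 5.81, 3.32, 5.05 and 5.90 and Zfp84 read 7.32, 4.84, 6.71 and 6.48. Alkbh4, a demethylase, read 6.22, 3.83, 5.92 and 6.55. In the labelled knockout the 1 h differences of Zfp763, Zfp39 and Alkbh4 were -2.78, -2.73 and -2.08, against -3.35, -2.49 and -2.39 in wild type. That of Pheta2 was -1.06 against -2.51. Pheta2 started lower there, at 4.39, and read 3.33 at 1 h, near that array's background of 3.10. A decrease as large as in wild type could therefore not show.

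Metabolic lists differed in their counts. Of 19 tricarboxylic acid cycle genes 0, 1 and 5 were at least 2-fold lower at 1, 2 and 4 h, where 4.68%, 15.1% and 19.2% of all kept genes were, and none was higher. The median was -0.51 at 4 h. Idh1, the cytosolic isocitrate dehydrogenase, read 11.90, 11.77, 11.33 and 9.59, and Sdha, a subunit of succinate dehydrogenase, read 10.13, 9.80, 9.46 and 8.93, with -0.59 at 4 h on its other kept probe set. The list's median at 4 h is -0.38 under cyclic loess, -0.35 under the housekeeping deviation and 0.25 under the housekeeping level. The median kept gene lies at -0.08, -0.06 and 0.58 in these settings and at -0.23 in the deposited values. The sign of the list's median therefore depends on the scaling, but it lay below the median kept gene in each of them. Of 20 glycolysis and hypoxia genes 3 were higher and 5 lower at 4 h, where 11.7% and 19.2% of all kept genes were. Of 14 LXR target and cholesterol efflux genes 0 were higher and 6 lower at 4 h, and of 13 sterol synthesis genes 1 was higher and 3 lower. Hk2, a hexokinase, read 8.84, 9.49, 10.60 and 10.30, and Pfkfb3, an activator of phosphofructokinase, was lower before it was higher, at 8.23, 7.40, 7.14 and 9.98. Dhcr7, which completes cholesterol synthesis, read 9.41, 8.98, 8.25 and 6.37, and the cholesterol exporter gene Abcg1 read 11.18, 10.74, 9.48 and 9.28. All 24 kept respiratory chain genes and all 15 kept ribosomal protein genes stayed within 2-fold at every time, with medians of -0.14 and -0.18 at 4 h that turn to 0.61 and 0.58 under the housekeeping level; the median of respiratory chain genes is 0.02 under the housekeeping deviation.

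Cell cycle genes showed a few isolated changes. Of 16 kept genes, 2, 3 and 5 were at least 2-fold higher and 0, 0 and 4 lower at 1, 2 and 4 h, and at 4 h 11.7% and 19.2% of all kept genes were. Ccnd2, which encodes cyclin D2, read 3.92, 3.70, 8.08 and 10.50, 95.9-fold higher at 4 h, and its 7 kept probe sets gave differences from 3.14 to 6.58 at 4 h and from 0.32 to 4.16 at 2 h. Ccne1 read 4.27, 3.69, 4.47 and 7.55. Mki67, the proliferation marker Ki-67, read 4.84, 8.58, 8.59 and 7.36, whereas Top2a, another proliferation gene named after its values were seen, read 4.28, 4.32, 4.19 and 3.84.

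Some genes passed 2-fold in both directions, 12 upward and then downward and 19 the reverse. Tcim, a regulator of Wnt signalling, read 6.27, 9.55, 6.63 and 3.90, but its other kept probe set gave -0.34 at 4 h. Of the reverse kind, Trim21, a ubiquitin ligase that binds antibody-coated virus, read 8.18, 7.17, 9.97 and 11.36, and Tor3a, an interferon-responsive ATPase, read 6.49, 5.12, 7.85 and 9.85. Their early decrease was not seen on every probe set, since the highest gave 0.13 for Trim21 and -0.07 for Tor3a at 1 h. Ptger2, the prostaglandin receptor EP2, alternated at 7.52, 5.92, 7.75 and 5.39, and the labelled knockout gave the same alternation, with differences of -1.61, 0.62 and -2.24.

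Of the 3403 genes past 2-fold at some time in wild type, 1931 had the same shape in the labelled knockout. Among the 12 genes whose changes lay furthest apart were Lcn2, Xaf1, Il6 and Il10. Lcn2, an iron-sequestering antibacterial protein, read 4.69, 4.07, 8.10 and 10.82 in wild type, where it was 70.0-fold higher at 4 h. In the labelled knockout it read 11.02, 10.84, 10.91 and 11.27 and was already high at 0 h. Xaf1, an interferon-stimulated gene, read 6.82, 6.60, 9.41 and 10.79 in wild type and between 3.02 and 3.43 in the labelled knockout. Il6 in the labelled knockout read 3.42, 11.50, 12.52 and 12.49, past 2-fold at the same times and with a larger difference at 1 h. Il10 read 3.26, 4.37, 6.90 and 4.80 there, also past 2-fold at all LPS times and with a smaller difference at 1 h. With 1 array per genotype and time, a difference of genotype, of mouse and of array cannot be told apart.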

How the data were processed

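Total RNA of 8 macrophage samples was labelled with the NuGEN Ovation system and hybridised to 1 Affymetrix array each, per the labels' protocols. The deposited table holds log2 values, and the authors used RMA, per the submitters' processing notes, which state no version. RMA corrects background, quantile-normalises arrays and summarises probes. No scanner files or depth measures enter here, and the number of arrays limits the precision.

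Symbols came from the platform's annotation table, in which 932 probe sets had several and 9211 had none. Of the single-symbol ones, 34754 had an Entrez identifier in the RefSeq table of GRCm38.p6, which changed 0 symbols. The filter used the 4 wild-type arrays. Background was the highest of 27 bacterial control probe sets per array. Shapes and counts were computed in Python 3.11.15 with pandas 2.3.3 and tested on simulated data, and cyclic loess used limma 3.58.1 in R 4.3.3.

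Members and the 41 gene lists were chosen with earlier results of these data known, so a list's count is no independent evidence. At each time the 8 genes with the greatest increase and the 6 with the greatest decrease were eligible to be named, as were the 5 largest of each shape, the 4 largest of each list and a fixed set including Tnf, Il1b, Ifnb1 and Nos2. Genes outside this rule (the macrophage, neutrophil and stromal markers, Per1, Per2, Nr1d1, Lcn2, Xaf1 and those so marked in the text) were chosen after their values were seen. The alternatives were cyclic loess, 2 housekeeping centrings, 2 filters, 2 probe set choices, a floor at background, thresholds of 4-fold and 1.5-fold, and the mean of both 0 h arrays as reference.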

Additional observations from a re-analysis of the deposited data

How the results depend on the processing

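Of 209 comparisons of 19 counts over 11 settings, 62 moved by more than 1.5 times. Among the medians of selected gene lists, named below, and the genes named in the text, 1 difference past 2-fold changed sign. S100a9, a neutrophil marker, lay at 1.41 at 4 h and at -0.19 with the mean of both 0 h arrays as reference. With arrays centred on the housekeeping level, higher genes numbered 1160 and 2655 at 2 and 4 h and lower genes 230, 611 and 545 at 1, 2 and 4 h. In that setting 36 genes were up at 1 and 2 h, 348 at all LPS times, 691 at 2 and 4 h and 1580 at 4 h only, and 51 were down at all LPS times, 216 at 2 and 4 h and 270 at 4 h only. That centring moved the median kept gene to 0.06, 0.16 and 0.58. Cyclic loess left 56 genes down at 1 and 2 h and 121 at all LPS times, with a median kept gene of -0.05, -0.13 and -0.08. A filter 3 log2 units above the median left 185, 731 and 1083 lower genes at 1, 2 and 4 h, with 49, 43, 80, 182 and 416 genes down at 1 h only, at 1 and 2 h, at all LPS times, at 2 h only and at 2 and 4 h. The mean of all probe sets gave 250, 778 and 1041 lower genes, with 64, 53, 120, 204, 397 and 511 genes in the 6 downward shapes and 13 in both directions. The cause of these shifts was not tested. A limit of 4-fold by construction left 155, 299 and 430 higher and 34, 203 and 369 lower genes. Its upward shapes beyond 1 h only held 25, 95, 31, 148 and 184 genes, its downward shapes 15, 10, 8, 79, 106 and 253, and 1 gene went both ways. A limit of 1.5-fold gave 589 and 1154 higher genes at 1 and 2 h and 1321, 2680 and 2868 lower genes. It put 374 genes up at all LPS times, 151 up at 2 h only, 196, 256, 754 and 1202 down at 1 h only, at 1 and 2 h, at all LPS times and at 2 and 4 h, and 159 in both directions. The other settings moved no count by that much. List medians were compared for the immediate early, NF-kB, cytokine, chemokine, interferon-stimulated, FoxO, clock, tricarboxylic acid cycle and respiratory chain lists only. The limit for a move was the standard deviation between genotypes divided by the square root of 2. It was 0.24, 0.29 and 0.31 log2 units at 1, 2 and 4 h. Of these medians 46 moved by more than that limit and 197 did not. Of named genes 553 did, 1 (S100a9) changed sign and 3043 did not. Among all these moves and the change of sign, 290 came under the housekeeping level. No array could be left out. No paired analysis was possible because each genotype and time has 1 array and no replicate numbers. Genes near background, such as Nos2 and Ifnb1, have only bounds there.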
